A study of Homo sapiens with 24 samples.

Results

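The genes described here encode the proteins of the cytosolic ribosome. They were taken by symbol: every gene named RPS or RPL followed by a number, RPSA, and RPLP0, RPLP1 and RPLP2, with the copies that carry an L after the number of their partner. Left out were RPS27L, genes on chromosome Y, the RPS6K kinases and pseudogenes. Of the 28395 genes counted, 84 met this rule, 31 of the small (40S) and 53 of the large (60S) subunit. The counts come from 2 established human multiple myeloma cell lines, cultures of malignant plasma cells: JJN3, labelled p53-null, and MM1.S, labelled p53-WT, both with the genotype given as wild type. Each line was kept for 24 h with CX-5461 at 500 nM, an inhibitor of RNA polymerase I, the enzyme that transcribes the ribosomal RNA genes, with panobinostat at 50 nM, an inhibitor of histone deacetylases, with both drugs at these doses (called the combination), or with vehicle. Each of the 8 groups held 3 libraries of 3′ RNA sequencing, which counts polyadenylated transcripts by reads near their ends. Ribosomal RNA itself was therefore not measured. Each line stands for its p53 state alone, so p53 state and every other difference between the lines cannot be told apart.

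A ribosome is built from ribosomal RNA and 1 copy of most of these proteins, so their genes are among the most strongly transcribed of any cell and their messenger RNAs are held at related levels. Many of these messengers begin with a run of pyrimidines, the 5′ terminal oligopyrimidine (TOP) motif, through which their translation is coupled to growth signals. When ribosomal RNA synthesis stops, ribosomal proteins that find no ribosome to enter are degraded, and a few of them, RPL5 and RPL11 above all, bind MDM2, the ubiquitin ligase that keeps p53 low. A few of the genes have a copy elsewhere in the genome (RPL22L1, RPL7L1, RPL36AL, RPL39L, RPL26L1, RPL3L and RPL10L). For some of these copies, not all, the protein can take the place of its partner in some cells.

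Library totals ranged from 4751893 to 7305069 counts, and the ribosomal protein genes took 19.0% to 24.7% of a library (median 20.8%). All 10 plasma cell markers examined had counts in both lines, with CD38 at 0 to 2 counts per library in JJN3 and 13 to 40 in MM1.S. HBB, a globin gene of red blood cells, had 2116 to 5078 counts in JJN3 libraries and 13 to 143 in MM1.S libraries, while T cell, myeloid and stromal markers reached at most 14, 55 and 118 counts in any library. Plasma cell markers other than CD38 had fewer counts with panobinostat than with vehicle in every MM1.S library: SDC1, the gene of CD138, had 403, 622 and 402 counts with panobinostat and 396, 502 and 405 with the combination, against 6504, 5380 and 6822 with vehicle. The part of that change in the values below was not tested. The treatment field of JJN3 CX-5461 replicates 2 and 3 writes the drug's name with another final digit, and the titles and treatment protocols, which give CX-5461, were followed. Where the handling of reads that match several places is not known, a gene and its near-identical copies or pseudogenes can share reads, and every member's value carries that doubt. Whether replicates were separate cultures is not stated in the labels, so p-values measure only the spread between these libraries, which may be technical. All values are relative to the other transcripts of a library, so less of a transcript per cell and more of the others cannot be told apart, nor can fewer cells of a kind and less RNA per cell.

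The ribosomal protein genes' share of the counts differed by under 2 percentage points between the means of treated and untreated cells. In JJN3 the share averaged 22.2% with CX-5461, 23.1% with panobinostat, 21.5% with the combination and 23.0% with vehicle. In MM1.S it averaged 19.2% with CX-5461, 20.8% with panobinostat, 20.3% with the combination and 19.8% with vehicle. JJN3 combination libraries held 21.7%, 22.9% and 19.8%, against 24.0%, 23.6% and 21.5% for JJN3 vehicle. Matched by replicate number, the JJN3 share was below vehicle in 3 of 3 pairs with CX-5461 and with the combination and in 2 of 3 with panobinostat. In each JJN3 group the replicate numbered 3 had the lowest share of the group. In MM1.S the nuclear RNAs MALAT1 and NEAT1 held 6.95% of counts under panobinostat and 7.93% under the combination, against 0.62% with vehicle, and with those counts set aside the MM1.S ribosomal protein share averaged 22.3% with panobinostat and 22.1% with the combination, against 20.0% with vehicle.

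**Figure D1:**
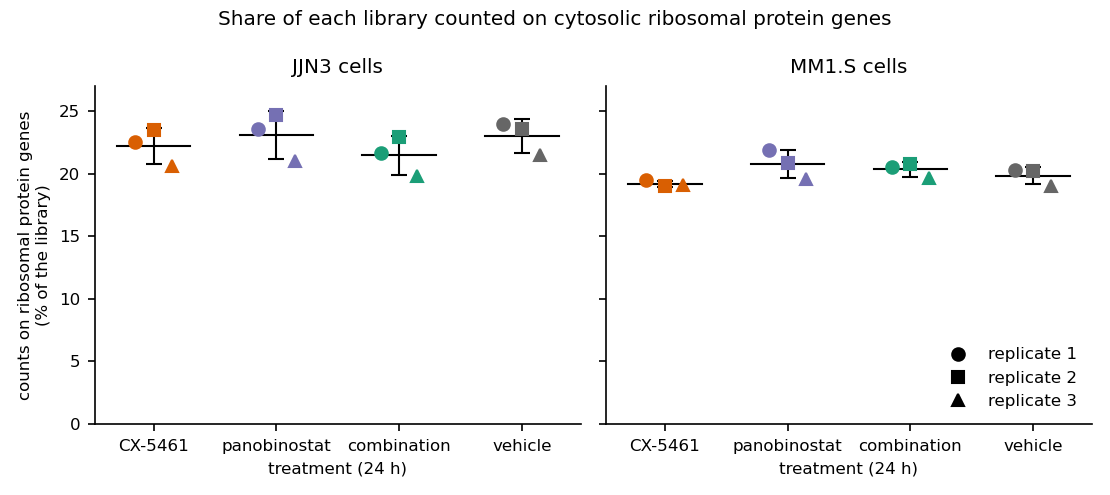
Percent of each library's counts that fell on the 84 cytosolic ribosomal protein genes, by line (panels) and treatment; points are libraries, shaped by replicate number, and lines with bars are the mean ± SD of 3 libraries. JJN3 libraries lie between 19.8% and 24.7% and MM1.S libraries between 19.0% and 21.9%, and treated and vehicle libraries overlap in each line.

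Of the 84 genes, 81 had enough counts to be tested in each line. RPL10L, a copy of RPL10 known from testis, had 0 counts in all 24 libraries, RPL3L, a copy of RPL3 known from muscle, had 67 counts over all libraries, and RPS18 had 114. The annotated pseudogene RPS18P9 had 2496 counts, and whether reads of RPS18 were assigned to it was not tested. RPL3L counts added up to 0 with CX-5461, 3 with panobinostat, 4 with the combination and 0 with vehicle in JJN3, and to 1, 21, 38 and 0 under the same treatments in MM1.S. Further tested genes had few and uneven counts, among them RPS9 and RPL17. RPS9 had 1 to 167 counts per library, with the highest in MM1.S CX-5461 replicate 1, whose fellow libraries had 1 count each. RPL17 had 20 to 276 counts, highest in JJN3 combination replicate 2. The MM1.S CX-5461 fold change of RPS9 and the JJN3 combination fold change of RPL17 rest on these single libraries. In JJN3 RPS9 was called lower with panobinostat (-2.18 ± 0.69 SE, adjusted p = 0.028) and with the combination (-1.96 ± 0.65 SE, adjusted p = 0.025). Treated and vehicle libraries were apart in both comparisons. With so few counts, neither gene is read further.

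With CX-5461 alone, most ribosomal protein genes stood slightly below vehicle in both lines, and few passed the test. In JJN3, 72 of 81 had a log2 fold change below 0 (median -0.10), and in MM1.S 67 of 81 did (median -0.15), while the median of all genes tested was 0.00 in JJN3 and 0.01 in MM1.S. Members share the same libraries and scaling, so here and below such counts are a description and not independent observations. Scaled by library size alone, the members' medians were -0.04 in JJN3 and -0.08 in MM1.S, where those of all genes were 0.05 and 0.08. In JJN3 0 members were called in either direction at an adjusted p under 0.05 by edgeR's quasi-likelihood test, as were 0.0% of all genes, and 1 member had an unadjusted p under 0.05; DESeq2 and limma-voom also called 0. With the JJN3 replicate number as a block, RPL12 and RPS27A were called lower, where 0.771% of all genes were, and 0 members higher, where 0.605% were. In MM1.S, 2 members were called higher and 11 lower, where 9.68% of all genes were higher and 7.06% lower. The split was 4 and 6 when libraries were scaled by their size alone, and the 11 became 6 without CX-5461 replicate 1, 7 without CX-5461 replicate 3 and 22 without panobinostat replicate 1.

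RPS27A, which encodes a 40S protein made as a fusion with ubiquitin, and RPL12 were the members called lower in both lines, in JJN3 with the block only. Levels are given as CPM, counts scaled to a fixed library total within each line, in the order of the replicate numbers. In JJN3 RPS27A measured 16355, 16268 and 13921 CPM with CX-5461, against 19912, 18065 and 16734 CPM with vehicle (log2 fold change -0.23 ± 0.12 SE, adjusted p = 0.91, and 0.031 with the replicate block). In MM1.S it measured 14684, 13993 and 15254 CPM with CX-5461, against 20402, 19312 and 18352 CPM with vehicle (-0.40 ± 0.08 SE, adjusted p = 0.0011). The treated libraries lay below the vehicle libraries in both lines. RPL12, a 60S protein at the base of the stalk that recruits translation factors, measured 606, 624 and 575 CPM with CX-5461 in JJN3, against 781, 722 and 694 CPM with vehicle (-0.28 ± 0.11 SE, adjusted p = 0.83, and 0.046 with the block). In MM1.S RPL12 was 501, 513 and 546 CPM with CX-5461, against 655, 698 and 630.0 CPM with vehicle (-0.35 ± 0.10 SE, adjusted p = 0.016). Again no treated library reached the vehicle range.

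RPL5, which with RPL11 and the 5S ribosomal RNA forms the particle that binds MDM2, fell in MM1.S with CX-5461. It measured 1083, 1129.8 and 1153 CPM with the drug, against 1475, 1577 and 1422 CPM with vehicle (-0.41 ± 0.09 SE, adjusted p = 0.0015), and the groups did not overlap. RPL11 had a log2 fold change of -0.16 ± 0.09 SE in the same cells and did not pass the test (adjusted p = 0.23). RPS10, a protein of the 40S beak, was called lower as well, with 386, 334 and 353 CPM with CX-5461, against 484, 553 and 465 CPM with vehicle (-0.48 ± 0.11 SE, adjusted p = 0.0025). In the other direction, RPL13A, a 60S protein that also has a role in restraining translation of inflammatory messengers, measured 4143, 3958 and 3982 CPM with CX-5461, against 3528, 3209 and 2914 CPM with vehicle (0.32 ± 0.10 SE, adjusted p = 0.028). The RPL13A call was lost without any 1 of 5 libraries (adjusted p 0.056 to 0.15). Beside these, the p53 target genes CDKN1A and MDM2 had log2 fold changes with CX-5461 of 0.46 and 0.07 in JJN3, not past the test, and rose by 3.99 and 2.06 in MM1.S.

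Panobinostat moved single members in both directions. In JJN3, 0 members were called higher and 2 lower, RPL22L1 and RPS9, where 15.0% and 10.9% of all genes were. The members' median log2 fold change was -0.01. Scaled by library size alone it was 0.02, where the median of all genes was 0.04. At an unadjusted p under 0.05, 1 member was higher, and DESeq2 and limma-voom called 0 higher. With the replicate block, 3 were called higher and 7 lower in JJN3, where 22.4% and 19.5% of all genes were. In MM1.S, 14 members were called higher and 23 lower (median -0.06), where 36.9% of all genes were higher and 32.9% lower, so that 45.7% of members and 69.8% of all genes were called in either direction. Scaling by library size alone shifted the median of all genes by 0.14 and turned the members' median to 0.08, with 19 members higher and 11 lower, and without panobinostat replicate 1 the counts were 9 higher and 37 lower, and 13 were lower without replicate 3. The 3 called higher with the block (RPL28, RPS25 and RPL18) were all among the 14 of MM1.S, and of the 7 called lower 6 were among the 23 of MM1.S, with RPL10, RPL22L1, RPL39L, RPL7L1 and RPS27A in their number. The MM1.S call of RPS27A was lost in 3 alternative settings (adjusted p 0.074 to 0.35). How many of all genes were called in both lines was not counted.

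Among the calls with panobinostat, the copies RPL22L1 and RPL7L1 were lowest in MM1.S, and RPL22L1 and the sparse RPS9 were the 2 calls in JJN3. RPL22L1, the copy of the RNA-binding 60S protein RPL22, measured 52.3, 61.1 and 49.6 CPM with panobinostat in JJN3, against 102, 118 and 69.4 CPM with vehicle (-0.83 ± 0.18 SE, adjusted p = 0.0031). The MM1.S values were 33.6, 37.1 and 31.1 CPM with panobinostat, against 143, 123 and 124 CPM with vehicle (-1.94 ± 0.13 SE, adjusted p = 9.3e-13). No treated library reached the vehicle range in either line. RPL22 itself had a log2 fold change of 0.04 ± 0.18 SE in JJN3 and 0.01 ± 0.09 SE in MM1.S, and neither passed the test. RPL22L1 made up 3.96% ± 0.42 of the counts of the pair with panobinostat in JJN3, against 6.86% ± 0.97 with vehicle, and 3.501% ± 0.42 in MM1.S with panobinostat, against 12.2% ± 0.67 with vehicle (SD, n = 3 each).

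RPL7L1, the copy of RPL7, fell alongside it. In JJN3 it measured 102, 112 and 91.0 CPM with panobinostat, against 128, 148 and 120.4 CPM with vehicle (-0.37 ± 0.14 SE, adjusted p = 0.054, and 0.0012 with the block). MM1.S libraries held 53.7, 60.4 and 42.9 CPM with panobinostat, against 102, 123 and 107 CPM with vehicle (-1.08 ± 0.12 SE, adjusted p = 1.1e-08). The groups did not overlap in either line. RPL39L, the copy of the exit tunnel protein RPL39 that is known for its use in testis, measured 9.72, 9.86 and 9.26 CPM with panobinostat in JJN3, against 15.3, 11.1 and 13.4 CPM with vehicle (-0.46 ± 0.20 SE, adjusted p = 0.099, and 0.047 with the block). In MM1.S it measured 31.2, 31.2 and 30.5 CPM with panobinostat, against 49.5, 45.2 and 50.4 CPM with vehicle (-0.65 ± 0.11 SE, adjusted p = 2.0e-05). Treated libraries were below vehicle libraries in both. With CX-5461 the same gene was called higher in MM1.S, at 69.8, 65.2 and 71.0 CPM (0.50 ± 0.11 SE against vehicle, adjusted p = 0.0016). Its share of the counts of the pair with RPL39 in MM1.S was 22.3% ± 3.08 with CX-5461, 11.4% ± 1.91 with panobinostat, 10.1% ± 2.32 with the combination and 14.6% ± 2.08 with vehicle. RPL26L1, the copy of RPL26, was called in no drug comparison.

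RPL36AL and its partner RPL36A, 60S proteins of the tRNA exit site, were both called lower in MM1.S with each treatment. RPL36AL measured 337, 353 and 348 CPM with CX-5461, 354, 289 and 298 CPM with panobinostat and 252, 236 and 240.2 CPM with the combination, against 456, 452 and 421 CPM with vehicle. Each treated group lay below the vehicle libraries, and the combination lay below both single drugs. The log2 fold changes were -0.36 ± 0.09 SE with CX-5461 (adjusted p = 0.0093), -0.50 ± 0.09 SE with panobinostat (adjusted p = 4.4e-05) and -0.87 ± 0.09 SE with the combination (adjusted p = 1.1e-08). In JJN3 the same gene measured 415, 375 and 450.5 CPM with the combination, against 419, 401 and 426 CPM with vehicle, overlapping groups with a log2 fold change of -0.01 ± 0.11 SE. RPL36A in MM1.S measured 27.4, 34.6 and 28.6 CPM with CX-5461, 25.1, 34.0 and 35.2 CPM with panobinostat and 32.5, 32.7 and 40.6 CPM with the combination, against 39.2, 42.5 and 52.1 CPM with vehicle. Its combination libraries overlapped the vehicle libraries, and that call was lost in 5 alternative settings (adjusted p 0.061 to 0.33). The CX-5461 call of RPL36A was lost without vehicle replicate 3 (adjusted p = 0.078). RPL36A was the 1 member called for a departure from additivity in MM1.S, where 1.87% of all genes were called above it and 3.65% below: with both drugs it stood 0.73 ± 0.21 SE in log2 above the sum of the single effects (adjusted p = 0.038), a call lost in 8 of the alternative settings (adjusted p 0.056 to 0.14). In JJN3 no member departed from additivity, at an unadjusted p under 0.05 either, or by DESeq2 or limma-voom.

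The sequences around the annotated start of transcription are shown for 4 copies and the partners of RPL22L1 and RPL36AL, with RPL28 and RPS25, because RPL22L1 and RPL36AL carry a run of pyrimidines at the start, as most members do, and RPL7L1 and RPL26L1 do not. The windows run from 40 bases before to 20 bases from the start in the RefSeq annotation of GRCh38.p14, and capitals mark a run of pyrimidines (C or T) of which at least 5 in a row follow from a base within 5 of the start. RPL22L1 lies at chr3:170870176-170870235 (minus strand), RPL22 at chr1:6199576-6199635 (minus), RPL36AL at chr14:49620607-49620666 (minus), RPL36A at chrX:101390971-101391030 (plus), RPL28 at chr19:55385892-55385951 (plus), RPS25 at chr11:119018324-119018383 (minus), RPL7L1 at chr6:42879576-42879635 (plus) and RPL26L1 at chr5:172958689-172958748 (plus).
RPL22L1: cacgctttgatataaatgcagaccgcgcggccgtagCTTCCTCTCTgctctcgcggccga
RPL22: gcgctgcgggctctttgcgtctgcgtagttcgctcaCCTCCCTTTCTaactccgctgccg
RPL36AL: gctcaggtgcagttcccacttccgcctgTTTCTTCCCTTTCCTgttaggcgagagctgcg
RPL36A: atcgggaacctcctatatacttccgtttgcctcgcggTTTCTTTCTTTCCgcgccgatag
RPL28: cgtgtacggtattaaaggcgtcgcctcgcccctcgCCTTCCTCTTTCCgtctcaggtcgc
RPS25: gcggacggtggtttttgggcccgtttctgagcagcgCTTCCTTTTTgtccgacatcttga
RPL7L1: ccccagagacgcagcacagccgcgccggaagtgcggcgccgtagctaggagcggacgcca
RPL26L1: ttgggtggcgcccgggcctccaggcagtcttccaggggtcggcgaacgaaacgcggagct

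Of the 84 members, 67 had a promoter entry in the RefSeq table, and 55 of these (82.1%) carried such a run, against 30.2% of 10258 other genes tested and 30.0% of all 27305 promoters. The share was 85.5% among 62 members that are not copies and 2 of 5 copies (RPL22L1 and RPL36AL); the nuclear genes of the mitochondrial ribosome had it in 23 of 70. RPL22L1, the lowest of the MM1.S calls with panobinostat, and RPL28, the highest, both carry the run. In the 300 bases from 250 before to 50 after the start, read on both strands, CCGGAAG, the core of the site of ETS factors such as GABPA, stood in 32.8% of member promoters, against 41.4% of mitochondrial ribosome genes, 19.2% of other genes tested and 10.7% of all promoters. AAGATGG, part of the site of YY1, stood in 13.4% of member promoters, against 32.9%, 7.52% and 6.06% of the same sets. CACGTG, the E-box of MYC and MAX, stood in 5.97%, against 8.57%, 10.25% and 7.43%, and TATAAA in 10.4%, against 2.86%, 5.61% and 11.95%. These matches describe the letters of the windows and were not tested as sites.

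Among the canonical genes, RPL28, a 60S protein that budding yeast lacks, was the highest of the MM1.S calls with panobinostat. In JJN3 it measured 762, 762 and 633 CPM with panobinostat, against 528, 613 and 581 CPM with vehicle (0.32 ± 0.13 SE, adjusted p = 0.083, and 0.0071 with the block). The MM1.S values were 1029, 645 and 819 CPM with panobinostat, against 582, 517 and 524 CPM with vehicle (0.62 ± 0.13 SE, adjusted p = 0.00013). The groups did not overlap in either line, although the MM1.S treated libraries were widely spread. RPS25, a 40S protein needed for initiation at some internal ribosome entry sites, measured 1237, 1639 and 982 CPM with panobinostat in JJN3, against 1000.2, 1423 and 875 CPM with vehicle (0.23 ± 0.20 SE, adjusted p = 0.44, and 0.033 with the block). These groups overlapped, and each treated library exceeded the vehicle library of its own number. In MM1.S RPS25 measured 916, 779 and 780.0 CPM with panobinostat, against 592, 514 and 560.3 CPM with vehicle (0.57 ± 0.10 SE, adjusted p = 1.6e-05). With CX-5461 alone it fell in MM1.S, to 430.4, 471 and 441 CPM (-0.31 ± 0.10 SE, adjusted p = 0.031).

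RPL5 and RPL11 were called higher with panobinostat in MM1.S. In JJN3 their log2 fold changes were 0.00 ± 0.11 SE and 0.10 ± 0.12 SE, and the test of the difference between the lines gave -0.31 ± 0.13 SE for RPL5 (adjusted p = 0.061, and 0.0045 with the block) and -0.24 ± 0.15 SE for RPL11 (adjusted p = 0.22, and 0.036 with the block). In MM1.S RPL5 measured 1972, 1920.1 and 1763 CPM and RPL11 3982, 3449.6 and 3324 CPM with panobinostat, against 1475, 1577 and 1422 CPM and 2937, 2835 and 2633 CPM with vehicle. The log2 fold changes were 0.34 ± 0.09 SE for RPL5 (adjusted p = 0.0012) and 0.36 ± 0.09 SE for RPL11 (adjusted p = 0.00087), with no overlap of the groups. RPL23, another MDM2-binding 60S protein, had 0.26 ± 0.09 SE in MM1.S (adjusted p = 0.011). Of the 13 ribosomal proteins listed as binders of MDM2, 0 were called with panobinostat in JJN3 by the fit of group means. Of all genes, 15.0% were higher and 10.9% lower in that fit. With the block 1 was higher (RPS25) and 1 lower (RPS27A), where 22.4% and 19.5% of all genes were. In MM1.S, where 69.8% of all genes were called, 5 were higher (RPL5, RPL11, RPL23, RPS25 and RPS26) and 2 lower (RPS7 and RPS27A), with a list median of 0.01. The calls of RPL23, RPS26, RPS7 and RPS27A were each lost in 2 or 3 alternative settings (adjusted p 0.070 to 0.35). With CX-5461 alone 0 of the 13 were called in JJN3 by group means, as were 0.0% of all genes. RPS27A was lower with the block, where 0.771% of all genes were. In MM1.S 3 were lower (RPL5, RPS25 and RPS27A, list median -0.19), where 7.06% of all genes were.

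RPSA, a 40S protein also described as a receptor for laminin, and RPL10, a 60S protein added late in assembly near the peptidyl transferase centre, were lower with panobinostat in MM1.S. RPSA measured 598, 493 and 487 CPM with panobinostat, against 863, 669.7 and 710.3 CPM with vehicle (-0.51 ± 0.11 SE, adjusted p = 0.00016). RPL10 measured 394, 311 and 296 CPM with panobinostat, against 523, 521 and 442 CPM with vehicle (-0.57 ± 0.10 SE, adjusted p = 3.0e-05). Treated and vehicle libraries of both genes were apart. RPL41, which encodes the shortest ribosomal protein, was also called lower (-1.01 ± 0.39 SE, adjusted p = 0.045), but its groups overlapped: it measured 178, 121 and 123 CPM with panobinostat, against 193, 491 and 168 CPM with vehicle, and vehicle replicate 2 alone stood apart. The call was lost in 12 alternative settings (adjusted p 0.055 to 0.12). The 3 proteins of the P stalk, RPLP0, RPLP1 and RPLP2, which bind the translation GTPases, were called in no drug comparison of either line by the fit of group means, and their log2 fold changes with panobinostat lay between -0.08 and 0.03 in MM1.S. With the JJN3 block, RPLP1 was lower with the combination against vehicle (adjusted p = 0.0025), and RPLP1 and RPLP2 were lower with the combination against panobinostat (adjusted p = 0.013 and 0.0088).

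**Figure D2:**
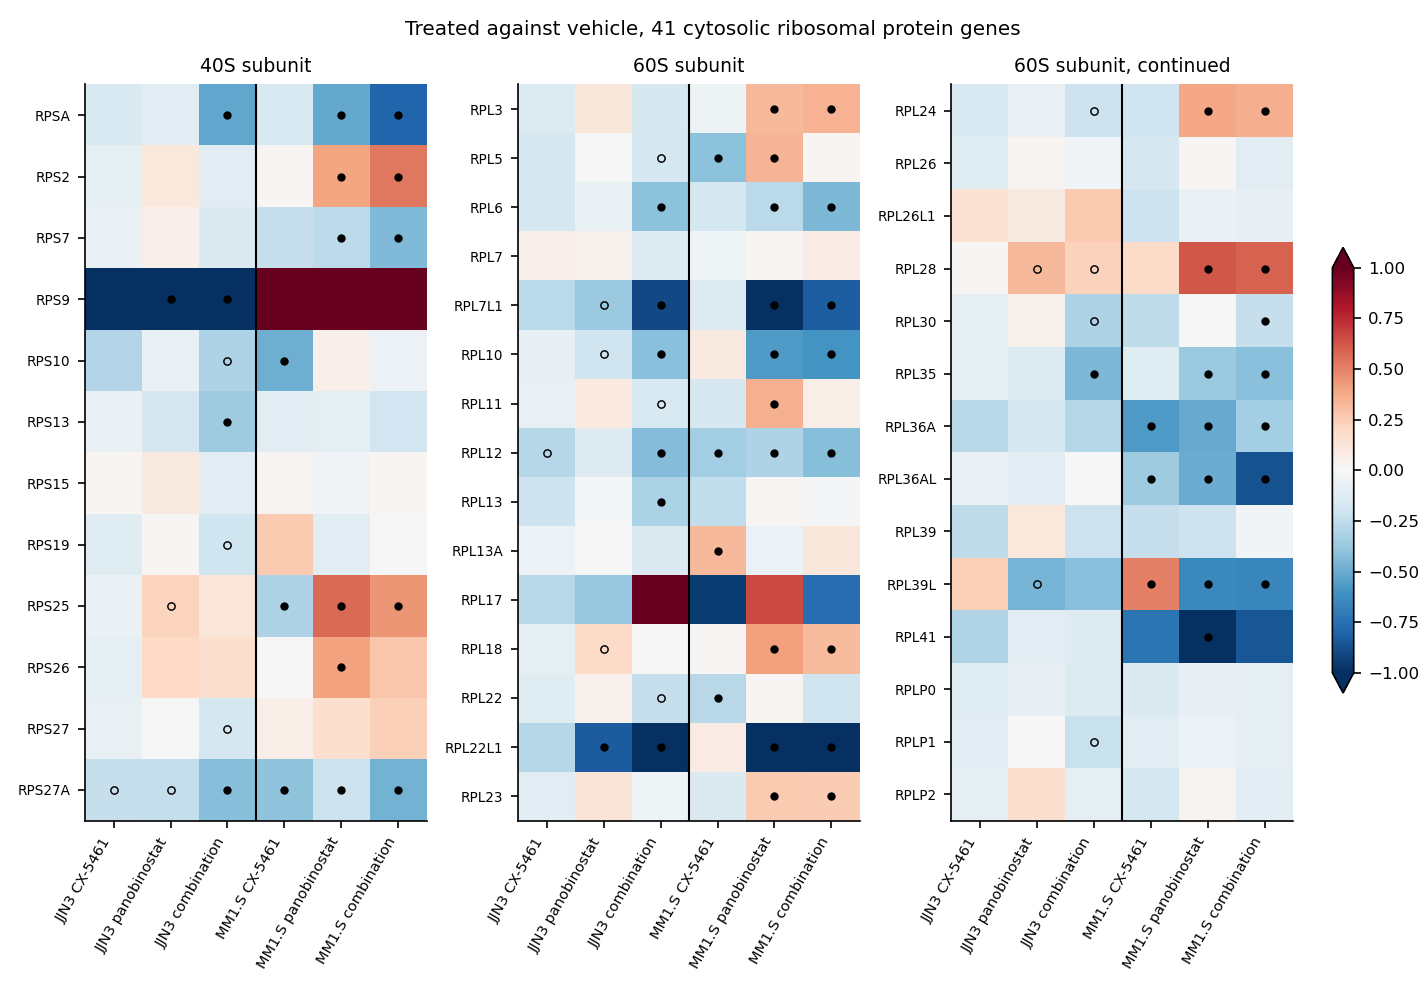
Log2 fold change against vehicle of 41 tested genes named in the text (rows, by subunit) in the 3 JJN3 and 3 MM1.S comparisons (columns; blue lower and red higher than vehicle, colours saturating at 1 in either direction). Filled dots mark an adjusted p under 0.05 and open dots JJN3 calls made only with the replicate block. The saturated cells of RPS9 and RPL17 come from few counts, and some of them from single libraries.

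With both drugs together, more members were called lower than higher in JJN3, and in MM1.S as well except when libraries were scaled by size alone. In JJN3, 73 of 81 members had a log2 fold change below 0 (median -0.21), 12 were called lower and 0 higher, where 18.2% of all genes were lower and 21.0% higher; 1 member was higher at an unadjusted p under 0.05, DESeq2 called 1 higher and limma-voom 0. Scaled by library size alone, which shifted the median of all genes by 0.11, the JJN3 calls were 1 higher and 7 lower, and 6 were lower without vehicle replicate 1, combination replicate 1 or combination replicate 3. With the replicate block 50 members were called lower in JJN3, 19 of the 40S and 31 of the 60S subunit, and 1 higher (RPL28), where 25.9% of all genes were lower and 27.6% higher. In MM1.S, 31 were called lower and 11 higher (median -0.15), where 33.2% and 37.0% of all genes were. In MM1.S the shift of the median of all genes with scaling by library size alone was 0.17, the members' median was 0.03, and the calls were 15 lower and 19 higher. By fits of group means, 9 members were called lower in both lines, of 12 called in JJN3 and 31 in MM1.S, which is 75% of the JJN3 and 29.0% of the MM1.S calls. The like overlap over all genes was not counted, and 33.2% of all genes were lower in MM1.S.

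RPL22L1 was again the lowest call in MM1.S and, RPS9 aside, in JJN3, where RPL7L1 came next. RPL22L1 measured 31.1, 40.03 and 41.6 CPM with the combination in JJN3 (-1.36 ± 0.19 SE against vehicle, adjusted p = 2.4e-05) and 31.6, 41.2 and 27.9 CPM in MM1.S (-1.95 ± 0.13 SE, adjusted p = 7.3e-13). RPL7L1 measured 63.4, 82.2 and 67.0 CPM with the combination in JJN3 (-0.90 ± 0.14 SE against vehicle, adjusted p = 8.3e-05) and 66.4, 63.0 and 57.9 CPM in MM1.S (-0.83 ± 0.12 SE, adjusted p = 6.9e-07). None of these combination libraries reached the vehicle range. Set against panobinostat alone, JJN3 combination libraries stood lower for RPL22L1 (-0.53 ± 0.19 SE, adjusted p = 0.19, and 0.0094 with the block) and for RPL7L1 (-0.52 ± 0.14 SE, adjusted p = 0.082, and 0.00025 with the block). In MM1.S the same contrasts were -0.01 ± 0.14 SE and 0.25 ± 0.12 SE and did not pass the test.

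Other members called lower with the combination in both lines included RPSA, RPS27A, RPL6, RPL10, RPL12 and RPL35. The JJN3 call of RPL10 was lost with scaling by library size alone and without vehicle replicate 1, combination replicate 1 or combination replicate 3 (adjusted p 0.070 to 0.11). RPSA measured 637, 605 and 509 CPM with the combination in JJN3, against 913, 833 and 762 CPM with vehicle (-0.52 ± 0.13 SE, adjusted p = 0.0039). MM1.S libraries held 439, 430.0 and 429 CPM with the combination, against 863, 669.7 and 710.3 CPM with vehicle (-0.79 ± 0.11 SE, adjusted p = 4.1e-07), and the groups of both lines were apart. RPS27A had a log2 fold change of -0.43 ± 0.12 SE in JJN3 (adjusted p = 0.0082) and -0.47 ± 0.08 SE in MM1.S (adjusted p = 1.5e-05). RPL35, a protein beside the exit tunnel, had -0.45 ± 0.12 SE in JJN3 (adjusted p = 0.0071) and -0.42 ± 0.12 SE in MM1.S (adjusted p = 0.0026). RPS13, RPL13 and RPS9 were also called lower in JJN3.

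The members called higher with the combination in MM1.S were led by RPL28, RPS2 and RPS25. RPL28 measured 689, 651 and 680.1 CPM with the combination in JJN3, against 528, 613 and 581 CPM with vehicle (0.23 ± 0.13 SE, adjusted p = 0.18, and 0.037 with the block). In MM1.S it measured 773, 745 and 931 CPM with the combination, against 582, 517 and 524 CPM with vehicle (0.59 ± 0.13 SE, adjusted p = 0.0002). RPS2, a 40S protein at the channel where messenger RNA enters, measured 627, 489.7 and 546 CPM with the combination in MM1.S, against 404, 356 and 394 CPM with vehicle (0.53 ± 0.11 SE, adjusted p = 0.00018). RPL5, lower with CX-5461 and higher with panobinostat, measured 1485, 1548 and 1503 CPM with both, inside the vehicle range, with a log2 fold change of 0.02 ± 0.09 SE. The count of members called higher was 7 without vehicle replicate 3 or without combination replicate 1.

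**Figure D3:**
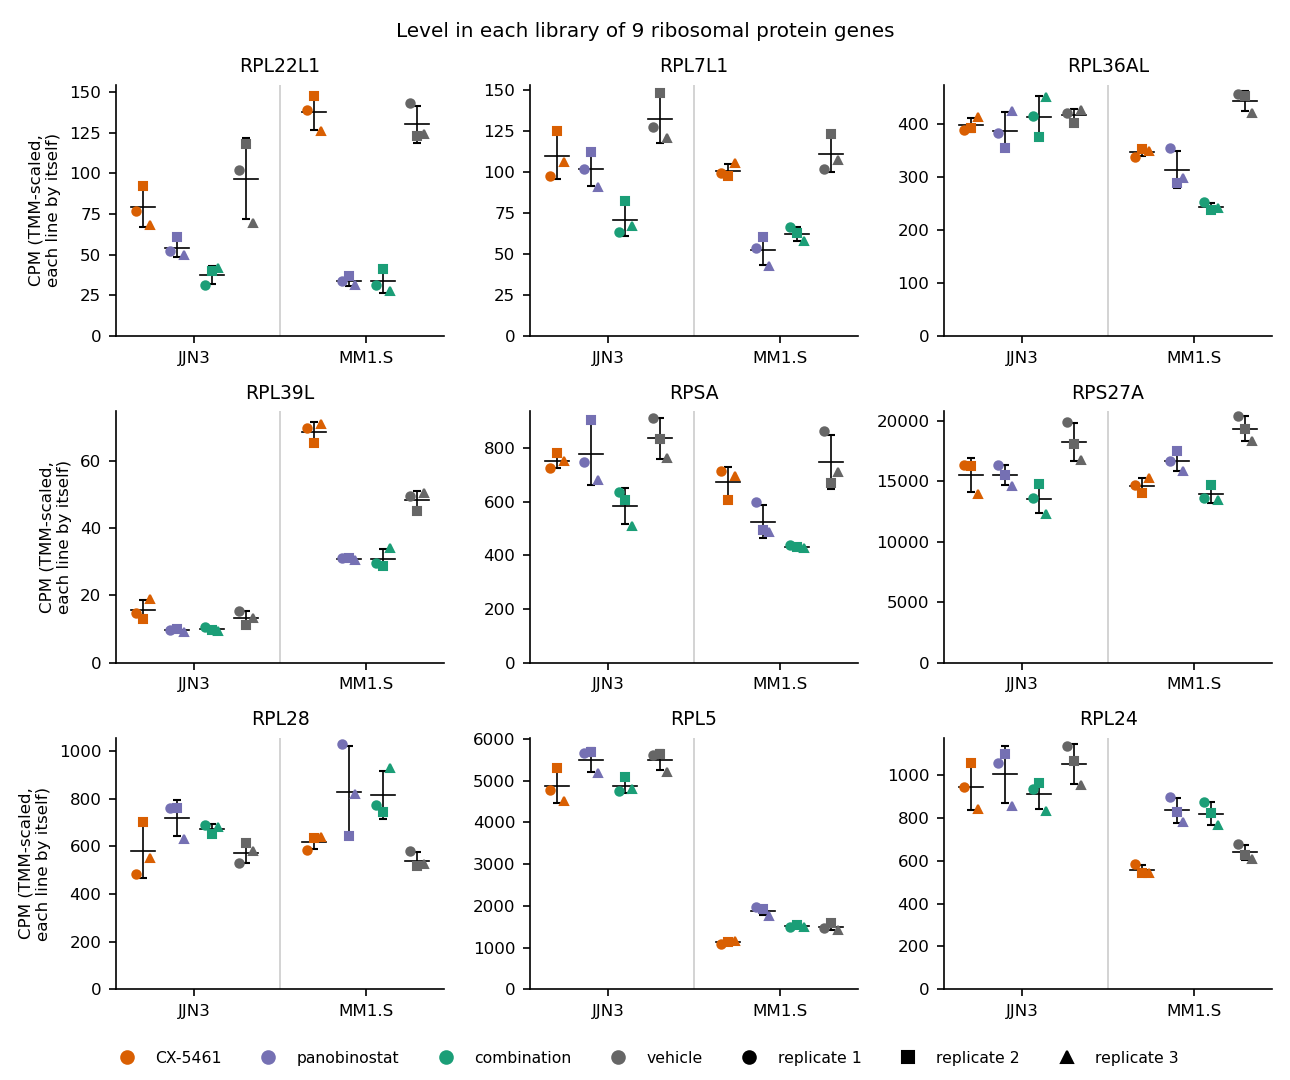
CPM in each library of 9 ribosomal protein genes, scaled by TMM within each line, so that levels are to be read within a line; colours are treatments, shapes replicate numbers, and lines with bars the mean ± SD of 3 libraries. RPL22L1 and RPL7L1 lie below vehicle with panobinostat and with the combination in both lines, RPL36AL lies below vehicle in MM1.S under every treatment, and RPL28 lies above vehicle with panobinostat in both.

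With CX-5461 added to panobinostat, the medians of the 40S and 60S genes were -0.19 and -0.20 in JJN3 and -0.07 and -0.09 in MM1.S. In JJN3, 76 of 81 members were below 0 in this contrast (median -0.20, against a median of 0.01 for all genes), yet none was called by the fit of group means, where 0.184% of all genes were higher and 0.719% lower (0.903% in all); 11 members had an unadjusted p under 0.05 (1 higher and 10 lower), DESeq2 called 1 lower and limma-voom none. With the replicate block 31 members were called lower and 0 higher, where 6.48% and 5.78% of all genes were. In MM1.S, RPL36AL and RPL5 were called lower and none higher (median -0.08), where 1.65% and 2.44% of all genes were. RPL36AL had a log2 fold change of -0.37 ± 0.09 SE (adjusted p = 0.025) and RPL5 of -0.32 ± 0.09 SE (adjusted p = 0.034). Both calls were lost without panobinostat replicate 3 or without any 1 of the combination libraries, and RPL5 also without panobinostat replicate 2 (adjusted p 0.052 to 0.13). RPL5 measured 1485, 1548 and 1503 CPM with both drugs, against 1972, 1920.1 and 1763 CPM with panobinostat alone, and these libraries did not overlap.

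The members' fold changes against vehicle were compared between the 2 lines, which share no library. Over 81 members Spearman's rho between the JJN3 and the MM1.S log2 fold changes was 0.39 with CX-5461, 0.62 with panobinostat and 0.55 with the combination, against 0.27, 0.62 and 0.62 over all 10628 genes tested in both lines. For the combination against panobinostat rho was 0.08 over members and 0.10 over all genes. These values are a description, since members of a library share its depth and scaling. Pearson's r was -0.47, -0.33 and -0.09 over all 81, which RPS9 and RPL17 weigh on: without these 2, chosen after their values were seen, it was 0.24, 0.85 and 0.76 over 79 members. Over all 10628 genes r was 0.26, 0.63 and 0.65. Both lines were below 0 for 61 of 81 members with CX-5461 (75.3%, against 30.6% of all genes), 35 with panobinostat (43.2%, against 36.6%) and 56 with the combination (69.1%, against 36.8%).

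**Figure D4:**
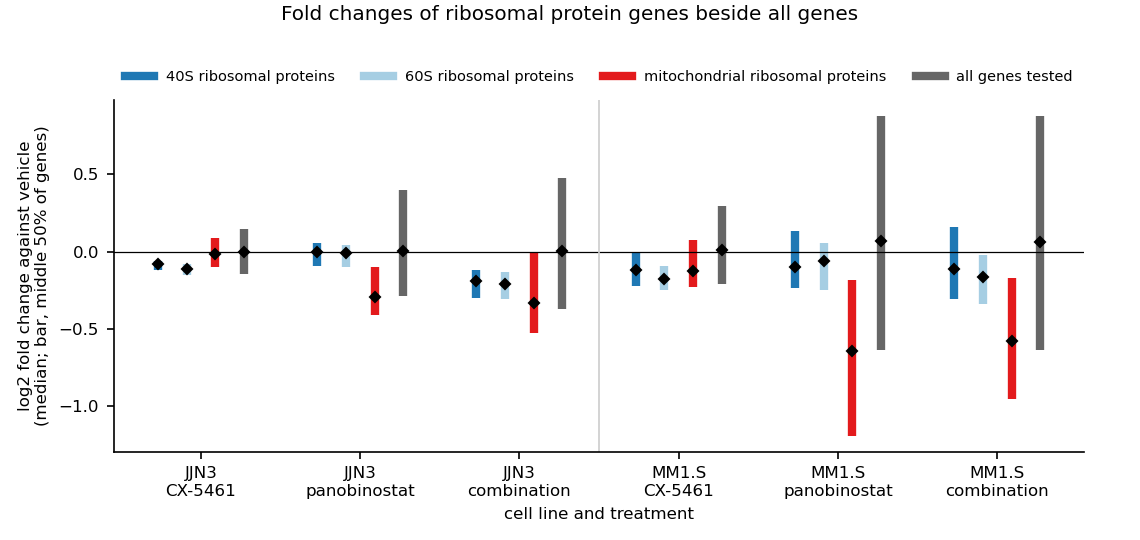
Median (diamond) and middle 50% of genes (bar) of the log2 fold change against vehicle for 40S and 60S ribosomal protein genes, nuclear genes of the mitochondrial ribosome and all genes tested, by line and treatment. The bars of the cytosolic genes are shorter than those of all genes in every comparison; their medians with panobinostat are near 0 and turn sign with scaling by library size alone, while the mitochondrial ribosome's median is -0.30 in JJN3 and -0.64 in MM1.S.

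A test of the difference between lines called few members. For CX-5461 none was called (0.287% of all genes were higher and 1.03% lower, 1.32% in all). An unadjusted p under 0.05 was reached by 5 members, and DESeq2 and limma-voom called 0. Only the block called RPL13A and RPS19 lower in JJN3 than in MM1.S, where 2.89% of all genes were lower and 1.63% higher. By group means RPL13A had -0.38 ± 0.16 SE (adjusted p = 0.36, and 0.014 with the block). RPS19 had -0.38 ± 0.16 SE (adjusted p = 0.35, and 0.015 with the block). For panobinostat 3 members had a higher and 1 a lower log2 fold change in JJN3 than in MM1.S, where 18.9% and 14.4% of all genes did, and with the block 10 and 4, where 23.1% and 17.8% did. The split was 2 and 4 with scaling by library size alone and 2 and 2 with DESeq2's size factors or with scaling by all other genes. For the combination it was 2 higher and 3 lower (18.8% and 14.0% of all genes), with the block 3 and 13 (23.1% and 17.3%), and 1 and 10 with scaling by library size alone. With each of the 24 libraries left out in turn, the counts ran from 2 to 4 higher and 0 to 3 lower for panobinostat and from 1 to 3 higher and 2 to 9 lower for the combination. RPL22L1 fell less in JJN3 than in MM1.S with panobinostat, with a difference of 1.13 ± 0.23 SE in log2 (adjusted p = 0.00023), and so did RPL7L1, with 0.73 ± 0.18 SE (adjusted p = 0.0026). RPL36AL differed by 0.88 ± 0.14 SE with the combination (adjusted p = 1.4e-05).

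RPL24, a 60S protein of a bridge between the subunits, went the other way. In JJN3 it measured 1056, 1098 and 853 CPM with panobinostat and 936, 960.4 and 831 CPM with the combination, against 1136, 1063 and 952 CPM with vehicle. The MM1.S values were 898, 827 and 778 CPM with panobinostat and 872, 822 and 766 CPM with the combination, against 679, 628 and 608 CPM with vehicle. The MM1.S groups were apart and the JJN3 groups overlapped. The difference between the lines (JJN3 over MM1.S) was -0.43 ± 0.16 SE with panobinostat (adjusted p = 0.031) and -0.55 ± 0.16 SE with the combination (adjusted p = 0.0065). RPS2 and RPL3, a 60S protein close to the peptidyl transferase centre, differed in the same direction with the combination, by -0.62 ± 0.17 SE (adjusted p = 0.0048) and -0.49 ± 0.17 SE (adjusted p = 0.026).

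Without drugs the members differed between the lines about as often as all genes did: 66.7% of members and 63.7% of all genes were called. In vehicle-treated JJN3 against vehicle-treated MM1.S, 38 members were called higher and 16 lower (median log2 fold change 0.27), where 30.2% and 33.5% of all genes were. RPL5 measured 5634, 5592 and 5258 CPM in JJN3, against 1469.9, 1572 and 1417 CPM in MM1.S (1.89 ± 0.09 SE, adjusted p = 3.3e-17), when both lines were scaled together. RPL13 measured 3586, 3579.5 and 3049.5 CPM in JJN3, against 1243, 1178 and 1058 CPM in MM1.S (1.55 ± 0.11 SE, adjusted p = 4.0e-13). RPL30 had 2.32 ± 0.19 SE (adjusted p = 3.7e-11) and RPS2 1.22 ± 0.12 SE (adjusted p = 2.8e-10). The libraries of the lines were apart for each of these genes.

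Among the lowest in JJN3 were the copies RPL39L and RPL26L1 and the short RPL41. RPL39L measured 15.4, 10.99 and 13.5 CPM in JJN3, against 49.4, 45.03 and 50.3 CPM in MM1.S (-1.86 ± 0.14 SE, adjusted p = 1.4e-12). RPL26L1 measured 38.0, 30.5 and 27.8 CPM in JJN3, against 63.6, 48.3 and 58.8 CPM in MM1.S (-0.84 ± 0.16 SE, adjusted p = 3.3e-05). RPL41 measured 87.5, 64.7 and 72.1 CPM in JJN3, against 192, 489 and 167 CPM in MM1.S (-1.92 ± 0.29 SE, adjusted p = 1.3e-05), again with MM1.S replicate 2 far above its fellows but with no overlap. The number called lower was 10 without JJN3 vehicle replicate 3. Of the 13 MDM2-binding proteins 9 were higher and 1 (RPS15) lower in JJN3, where 30.2% and 33.5% of all genes were. Of the 17 genes whose mutation causes Diamond-Blackfan anaemia, a failure of red cell production, 7 were higher and 3 lower, against 46.9% and 19.8% of all members tested.

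**Figure D5:**
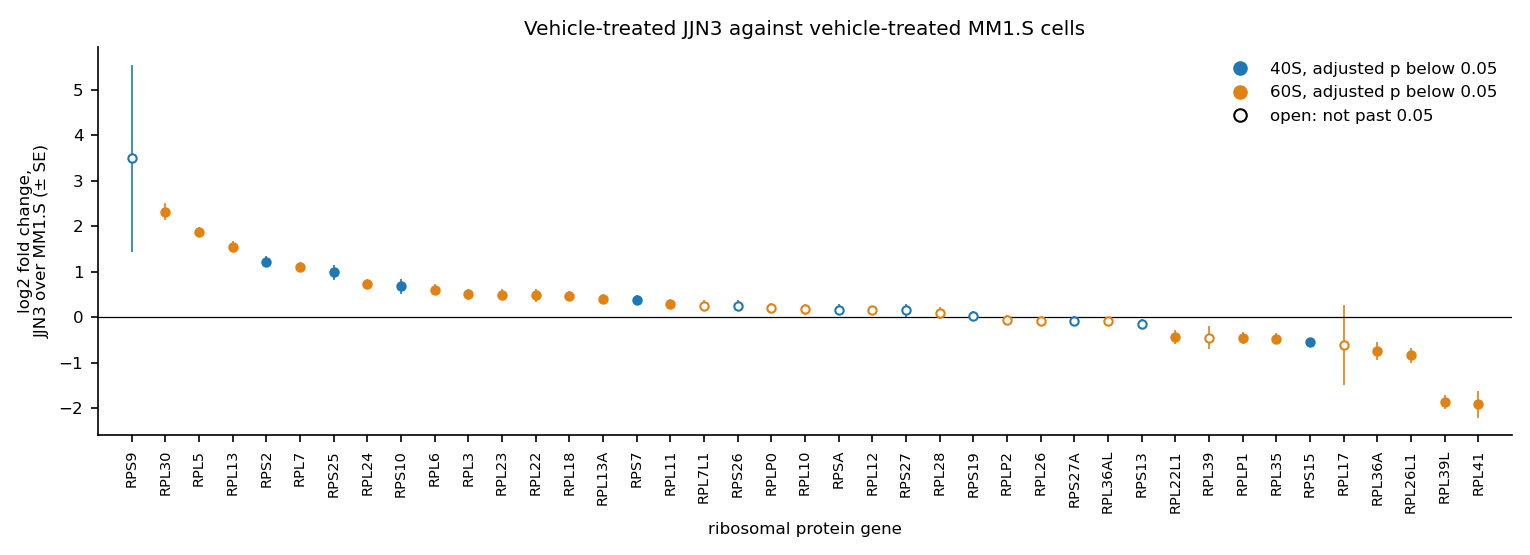
Log2 fold change ± SE of vehicle-treated JJN3 over vehicle-treated MM1.S for 41 tested genes named in the text, ordered from highest to lowest; blue points are 40S and orange points 60S genes, filled where the adjusted p is under 0.05. RPL30, RPL5, RPL13 and RPS2 stand highest among the calls, and RPL41 and RPL39L lowest.

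Ribosomal proteins that the naming rule leaves out gave mixed values. FAU, the 40S protein made as a fusion with a ubiquitin-like domain, had -0.05 ± 0.11 SE with panobinostat and -0.27 ± 0.12 SE with the combination in JJN3, neither past the test. In MM1.S it was called lower with panobinostat (-0.28 ± 0.09 SE, adjusted p = 0.0084) and the combination (-0.50 ± 0.09 SE, adjusted p = 2.8e-05). RPS27L, the copy of RPS27 and a p53 target, had 0.02 ± 0.14 SE with CX-5461 in JJN3, not past the test, and was called higher in MM1.S (1.36 ± 0.11 SE, adjusted p = 2.0e-09).

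Many nuclear genes of the mitochondrial ribosome fell with panobinostat and with the combination. Each count of this kind is to be read beside the share of all genes called, which with panobinostat was 15.0% higher and 10.9% lower in JJN3 and 36.9% higher and 32.9% lower in MM1.S. With panobinostat 16 of 74 tested were called lower and 1 higher in JJN3 (median -0.30), and 51 lower and 4 higher in MM1.S (median -0.64). With the combination it was 31 lower and 2 higher in JJN3, where 18.2% of all genes were lower and 21.0% higher. In MM1.S it was 50 lower and 6 higher, where 33.2% and 37.0% of all genes were. With CX-5461 it was 0 in JJN3 (0.0% of all genes), and 9 lower and 2 higher in MM1.S (7.06% and 9.68%). The panobinostat effect was higher in JJN3 than in MM1.S for 35 of these genes and lower for 3, against 18.9% and 14.4% of all genes. Of 10 chaperones that escort single ribosomal proteins to the nucleus or ribosome, 4 were called lower with panobinostat in JJN3 and 7 lower and 1 higher in MM1.S; PDCD2L, a partner of newly made RPS2, had -0.98 ± 0.17 SE in JJN3 (adjusted p = 0.00052) and -1.76 ± 0.17 SE in MM1.S (adjusted p = 1.4e-09).

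Other genes with TOP messengers and regulators of the ribosomal protein genes were examined beside the members, with the same shares of all genes as background and 7.06% lower with CX-5461 in MM1.S. Of 23 other TOP genes, among them many translation factors, 0 were called with CX-5461 in JJN3, 1 was lower with panobinostat and 4 with the combination. In MM1.S 8 were called lower and 0 higher with CX-5461, 6 lower and 7 higher with panobinostat, and 6 lower and 6 higher with the combination. Of 17 regulators, 10 were called lower and 3 higher with panobinostat in MM1.S. LARP1, which binds the TOP motif and protects these messengers, had -0.64 ± 0.14 SE with panobinostat in JJN3 (adjusted p = 0.0024) and -1.40 ± 0.13 SE in MM1.S (adjusted p = 8.0e-10). MYC, a driver of ribosomal protein transcription, had -0.80 ± 0.25 SE in JJN3 (adjusted p = 0.028) and -3.55 ± 0.23 SE in MM1.S (adjusted p = 1.2e-12), and the part of these regulators in the members' values was not tested.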

How the data were processed

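The authors deposited 1 table of raw read counts per gene for each line, whole numbers with no normalisation. The tools named in the submitters' processing notes are HISAT2 2.2.1, featureCounts 2.0.1 and limma 3.50.0 with hg19 (GRCh37); for annotation, strand and reads with several matches the sources used here give no setting. Symbols were found for 27745 of 28395 gene IDs.

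Counts were fitted with edgeR 4.0.16 in R 4.3.3 (TMM scaling, filterByExpr, quasi-likelihood F test, robust dispersions), with the 4 groups of a line in 1 fit (12 libraries) or both lines together (24 libraries). P-values were adjusted by Benjamini-Hochberg over all genes tested, and members were called at an adjusted p under 0.05. SE is the log2 fold change over the root of F. Checks used DESeq2 1.42.0, limma-voom 3.58.1, other scalings and left-out libraries. The fits were tested on simulated data.

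Groups come from titles and treatment labels. Members and gene lists were chosen with earlier results of these data known. Named genes are a panel of 29 members and, per comparison, up to 4 calls in each direction whose average log2 CPM is 3 or more; members named beyond that were chosen after their values were seen. In JJN3 same-numbered libraries correlated in their deviations from the group means in all 18 pairs (r 0.20 to 0.48). The replicate number was therefore also fitted as a block. The 36 pairs of different numbers had r from -0.34 to -0.01. Deviations within a group sum to 0, so this range is tied to the first and is no separate support. A count of 0 allows up to 0.411 to 0.631 CPM (3 counts), which covers counting error only. Start sequences are from RefSeq (GRCh38.p14, 67 of 84 members), while the processing notes name hg19 (GRCh37) for the counts. Sequences and counts were joined by gene ID, and no positions were compared between builds. Some members are counted in the totals but not reported here by name.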

Additional observations from a re-analysis of the deposited data

Results flagged for a closer look

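For 6 genes the response to panobinostat or to the combination differed between the lines by a test of the difference itself (edgeR's quasi-likelihood test over both lines, 24 libraries, with p-values adjusted over all genes). Each value is a difference of log2 fold changes, JJN3 minus MM1.S. For panobinostat 3 members were higher and 1 lower in this test, where 18.9% and 14.4% of all genes were. For the combination 2 were higher and 3 lower, where 18.8% and 14.0% of all genes were. In each case a smaller share of members than of all genes was called, so a difference between the lines is not particular to the members.

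With panobinostat the difference was 1.13 ± 0.23 SE for RPL22L1 (adjusted p = 0.00023), 0.73 ± 0.18 SE for RPL7L1 (adjusted p = 0.0026), 0.41 ± 0.14 SE for RPL36AL (adjusted p = 0.023) and -0.43 ± 0.16 SE for RPL24 (adjusted p = 0.031). The treated libraries of RPL22L1 and RPL7L1 lay below the vehicle libraries in both lines, and the fall was smaller in JJN3. The RPL36AL call was lost in 21 alternative settings (adjusted p 0.054 to 0.17) and the RPL24 call without JJN3 panobinostat replicate 3 (adjusted p = 0.057).

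With the combination the difference was 0.88 ± 0.14 SE for RPL36AL (adjusted p = 1.4e-05), 0.60 ± 0.23 SE for RPL22L1 (adjusted p = 0.041), -0.62 ± 0.17 SE for RPS2 (adjusted p = 0.0048), -0.55 ± 0.16 SE for RPL24 (adjusted p = 0.0065) and -0.49 ± 0.17 SE for RPL3 (adjusted p = 0.026). RPL36AL fell in MM1.S and its groups overlapped in JJN3. RPS2, RPL24 and RPL3 rose in MM1.S, and in JJN3 their log2 fold changes were -0.11 ± 0.12 SE, -0.21 ± 0.13 SE and -0.16 ± 0.14 SE, with no call by the fit of group means (with the replicate block RPL24 was lower, adjusted p = 0.017). The RPL22L1 call was lost in 22 alternative settings (adjusted p 0.074 to 0.27) and the RPL3 call without MM1.S combination replicate 2 (adjusted p = 0.069).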

How the results depend on the processing

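Each value was recomputed with DESeq2's size factors, with scaling by library size alone, with TMM factors from all other genes, without the filter on low counts, with DESeq2, with limma-voom, with a replicate block, and without each library in turn. No call of a named gene changed its direction, while some values that were not called crossed 0. Of 2772 recomputed gene values outside the left-out libraries 2650 kept their call or lack of one, 26 lost the call and 96 gained one; of 6132 with a library left out 5918 kept it, 118 lost it and 96 gained it. In MM1.S same-numbered libraries correlated at -0.047 to 0.29 and were not taken as pairs. The causes of the changes below were not tested, and depth (at most 7305069 counts a library) limits members under about 1 CPM. Except for the replicate block, the shares of all genes called under these settings are not given here. A change in the members' counts there cannot be told apart from a change over all genes.

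Scaled by library size alone, the members called were 4 higher and 6 lower for CX-5461 in MM1.S, 11 lower for panobinostat, 19 higher and 15 lower for the combination, and 0 above and 1 below additivity; in JJN3 they were 1 higher and 7 lower for the combination. For the difference between lines this scaling gave 4 lower for panobinostat and 1 higher and 10 lower for the combination. DESeq2's size factors and TMM factors from other genes gave 2 lower for panobinostat and 1 higher for the combination in that difference.

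With the replicate block, 3 members were higher and 25 lower for CX-5461 in MM1.S, where 1413 and 1140 of 12030 genes tested were. For the combination over panobinostat 0 were higher and 7 lower, where 521 and 404 of all genes were. Above and below additivity 1 and 1 were called, where 400 and 623 of all genes were. In JJN3, whose same-numbered libraries correlated and were taken as pairs, the block gave 2 lower for CX-5461 (0.771% of all genes). It gave 3 higher and 7 lower for panobinostat (22.4% and 19.5% of all genes). For the combination 1 was higher and 50 were lower (27.6% and 25.9%). Over panobinostat 0 were higher and 31 lower with the combination (5.78% and 6.48%). For the difference between lines the block gave 2 lower for CX-5461 (2.89% of all genes). It gave 10 higher and 4 lower for panobinostat (23.1% and 17.8%) and 3 higher and 13 lower for the combination (23.1% and 17.3%).

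DESeq2 called 17 lower for CX-5461 in MM1.S and 4 for the combination over panobinostat, as did limma-voom (4); in JJN3 DESeq2 called 1 higher for the combination and 1 lower over panobinostat, and limma-voom 1 lower for panobinostat. For the difference between lines DESeq2 called 3 lower for panobinostat and 6 for the combination, and limma-voom 2 for panobinostat. Without the filter, JJN3 gave 1 higher for CX-5461, 4 lower for panobinostat, 1 higher and 20 lower for the combination, 1 higher and 2 lower over panobinostat, and 1 above and 1 below additivity. The difference between lines then gave 1 higher and 1 lower for CX-5461, 3 lower for panobinostat, and 4 higher and 5 lower for the combination.

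With each library left out in turn, MM1.S gave 1 to 3 higher and 6 to 22 lower for CX-5461, 9 to 16 and 13 to 37 for panobinostat, 7 to 14 and 26 to 38 for the combination, 0 to 1 and 0 to 3 over panobinostat, and 0 to 3 and 0 to 1 for additivity. JJN3 gave 0 to 0 for CX-5461, for the combination over panobinostat and for additivity, 0 to 0 higher and 1 to 3 lower for panobinostat, and 0 to 1 higher and 6 to 16 lower for the combination. The difference between lines gave 0 to 0 for CX-5461, 2 to 4 and 0 to 3 for panobinostat and 1 to 3 and 2 to 9 for the combination, and vehicle-treated JJN3 over MM1.S gave 37 to 46 and 10 to 16.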

Other observations

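Of the 17 genes whose mutation causes Diamond-Blackfan anaemia, 0 were called with CX-5461 or panobinostat in JJN3 by the fit of group means, where 0.0% of all genes were called with CX-5461 and, with panobinostat, 15.0% were higher and 10.9% lower. With the combination 1 was lower in JJN3 by group means, where 18.2% of all genes were lower, and 12 were lower with the replicate block, where 25.9% were. In MM1.S 4 were lower with CX-5461 (7.06% of all genes), 4 were higher and 3 lower with panobinostat (36.9% and 32.9%), and 1 was higher and 6 were lower with the combination (37.0% and 33.2%). Their median log2 fold changes lay between -0.18 and 0.01 in these 6 comparisons.

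Among annotated pseudogenes of the members, RPS14P3 held 24558 counts, RPL13AP5 3707 and RPS18P9 2496 over the 24 libraries, where RPS18 itself held 114. Whether reads of RPS14, RPL13A and RPS18 were assigned to them was not tested.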
